A study of Mus musculus with 27 samples.

Results

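Fibroblasts isolated from the digested aorta were compared between 2 genotypes of mouse, labelled Cre and TKO, after an infusion of angiotensin II. All samples labelled as aortic fibroblasts were taken, which gave 6 of the 27 samples of the series, 3 with the genotype Cre and 3 with the genotype TKO. Every mouse behind these libraries was of C57BL/6 strain background and received angiotensin II (Ang II), the vasoconstrictor peptide used to raise blood pressure, for 28 days, so that the comparison holds no sample without Ang II. The labels spell out neither Cre nor TKO and name neither the deleted gene nor the promoter that drives the recombinase, while the title of the series names KLF10, IL-9 and CD4+ T cells. The cells were frozen and their RNA was extracted with Trizol, and the labels do not say whether they were sorted, cultured or pooled over animals. Nothing in the labels says that the 3 libraries of a genotype came from separate animals, so the p-values measure the spread between these libraries, which may be technical.

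Fibroblasts of the aortic adventitia lay down and remodel the collagen-rich sleeve around the vessel. They secrete fibrillar collagens as procollagen, modify and fold them in the endoplasmic reticulum, crosslink them outside the cell, and surround them with small proteoglycans, glycoproteins and basement membrane networks, while metalloproteinases and their inhibitors set the rate of turnover. Transforming growth factor beta (TGF-beta) and Wnt ligands are the best known signals that turn fibroblasts into contractile, matrix-secreting myofibroblasts, and macrophages in the adventitia are a source of such signals. KLF10 is a zinc finger transcription factor first known as a TGF-beta-inducible early gene, and IL-9 is a cytokine made mainly by T cells and innate lymphoid cells.

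The 6 libraries held between 28174755 and 38633457 counted reads, with 0.796% to 0.970% of them on mitochondrial genes. No library pair was a duplicate: a chi-square statistic over genes was 17.8 to 91.3 times its degrees of freedom in the 15 pairs. Markers of fibroblasts were present in every library: all 19 passed the filter on low counts, with a summed level of 10496 to 15119 CPM, read counts scaled to a common library size, and Pdgfra, the platelet-derived growth factor receptor of mesenchymal cells, stood at 521 to 682 CPM. Summed macrophage markers stood at 1086, 2599 and 961 CPM in Cre replicates 1, 2 and 3 and at 805, 573 and 665 CPM in TKO replicates 1, 2 and 3. Cre replicate 2 therefore had the most macrophage RNA of all, and it also lay farthest out on the first principal component, which held 48.1% of the variance, at 31.96 against -24.82 to 10.47 in the other 5. Smooth muscle markers summed to 1285 to 2279 CPM in Cre and 2072 to 2581 CPM in TKO, endothelial markers to 95.0 to 128 CPM over all 6 libraries, and Schwann cell markers to 162 to 303 CPM. Markers of T cells (9.18 to 14.97 CPM), B and plasma cells (16.4 to 58.6 CPM), mast cells (2.85 to 10.6 CPM), mesothelium (13.9 to 22.1 CPM), fat (35.6 to 48.1 CPM), epithelium (1.31 to 2.99 CPM) and red cells (2.06 to 4.16 CPM) were low, while skeletal muscle markers ranged from 367 CPM in TKO replicate 2 to 1555 CPM in TKO replicate 1. The numbers in the library labels run together with genotype, lower in all Cre than in all TKO libraries, so a batch behind the numbers and the genotype cannot be told apart.

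**Figure D1:**
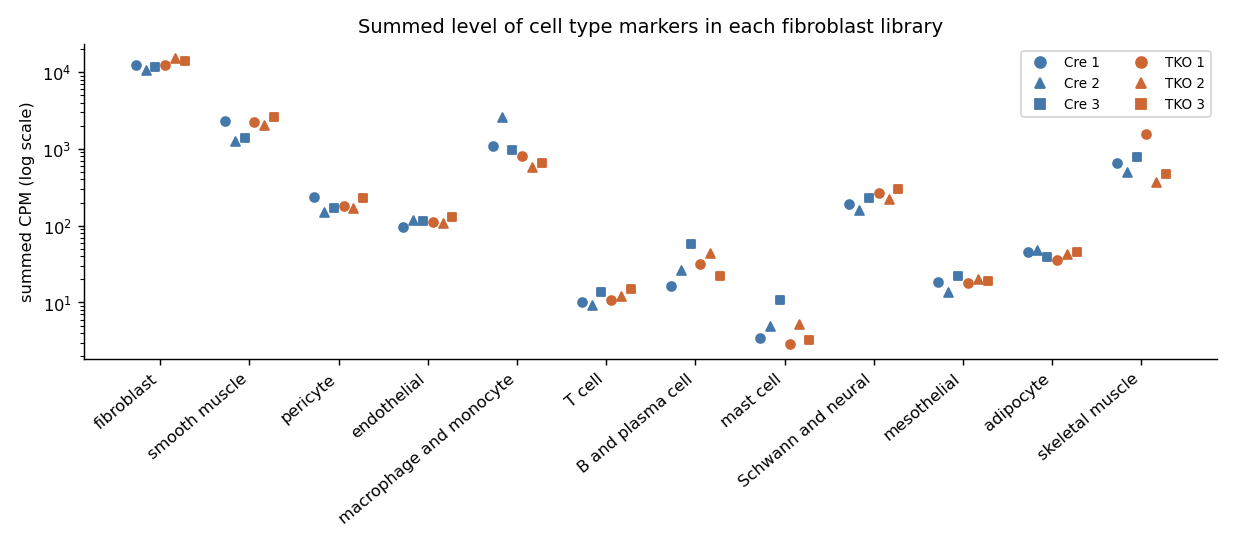
Summed level of the markers of each cell type (CPM, log scale) in each of the 6 fibroblast libraries, with 1 point per library, coloured by genotype and shaped by replicate. The macrophage sum is highest in Cre replicate 2 (2599 CPM) and lowest in TKO replicate 2 (573 CPM), while the fibroblast sum stays between 10496 and 15119 CPM.

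Klf10 was measured first, as the gene the title names. It stood at 73.2, 60.9 and 66.6 CPM in the Cre libraries and at 65.6, 58.2 and 71.2 CPM in the TKO libraries. The ranges overlapped, and the log2 fold change, TKO over Cre, was -0.04 ± 0.10 (SE; edgeR quasi-likelihood test, adjusted p = 0.885). Since the labels do not say in which cells a gene was deleted, this value checks no label. Il9 had 0 counts in 5 libraries and 1 count in TKO replicate 1, where a count of 0 allows up to 0.0777 to 0.106 CPM per library, counting error only. Its receptor gene Il9r lay at 0.182 ± 0.143 CPM in Cre and 0.296 ± 0.0907 CPM in TKO (SD, n = 3 each), a difference that did not pass (log2 fold change 0.68 ± 0.57, adjusted p = 0.652). None of the 14 Krüppel-like factor genes tested was called by edgeR or DESeq2, which called 0.0638% and 2.95% of all genes they tested. Klf3 alone had an unadjusted p under 0.05 in edgeR (log2 fold change 0.25), as did 12.1% of all genes. Klf5 had a log2 fold change of -0.78 with its highest level, 14.8 CPM, in Cre replicate 2.

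Of 15673 genes tested, edgeR called 5 higher and 5 lower in TKO at an adjusted p under 0.05, or 0.0319% in each direction and 0.0638% in all. At an unadjusted p under 0.05 the counts were 870 higher (5.55%) and 1028 lower (6.56%), or 12.1% together. DESeq2 called far more on the same counts, 149 higher (1.04%) and 275 lower (1.92%) of 14352 genes (2.95% together), and its list held all 10 edgeR calls. The median log2 fold change over all genes was 0.01. The 10 calls fell into 2 kinds, 5 protein-coding genes and 5 genes without a protein, of which 4 are processed pseudogenes and 1 is a long noncoding RNA. Pseudogenes made up 3.35% of the genes tested. In none of the 10 did the Cre and TKO ranges overlap. They were chosen by their p from these same libraries, so the lack of overlap adds no support. Of all tested genes, 8.86% had every TKO library above every Cre library and 8.45% had every one below.

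**Figure D2:**
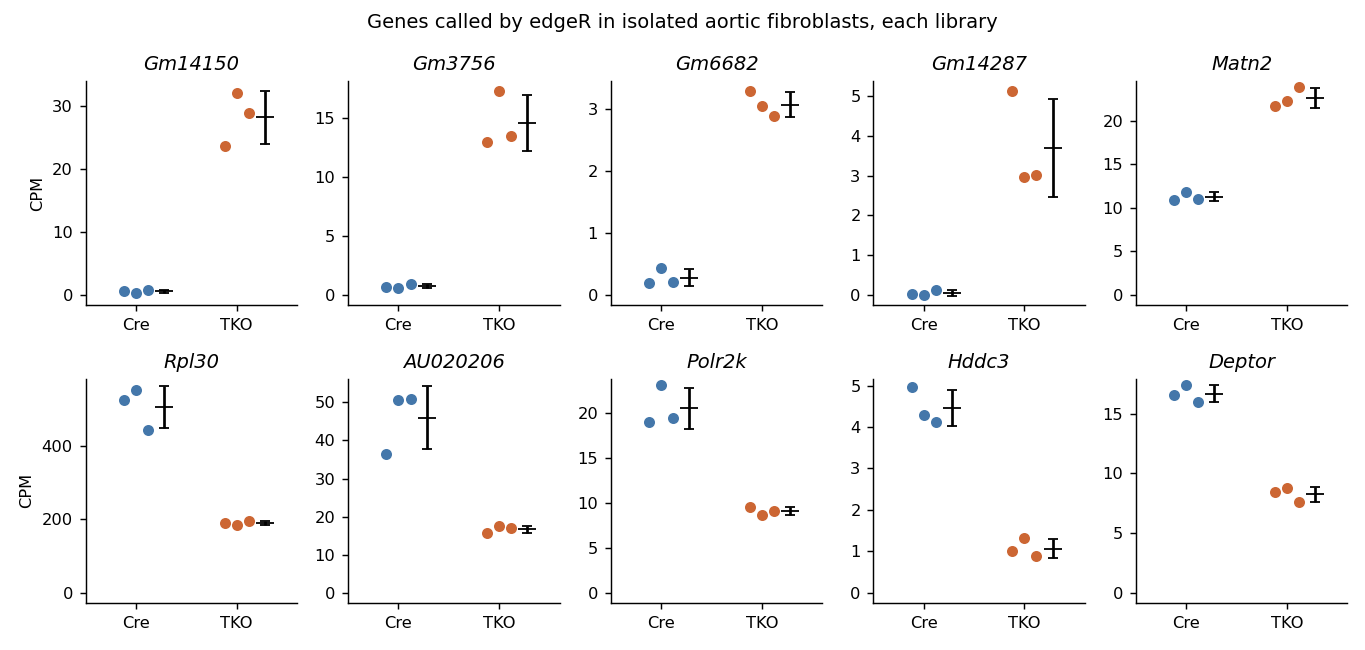
Level (CPM) of each of the 10 genes called by edgeR in the 3 Cre and 3 TKO libraries, 1 point per library, each panel on its own axis from 0. In every panel the points of one genotype lie wholly above those of the other.

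The largest increases were in processed pseudogenes, copies of spliced messenger RNAs pasted back into the genome. Gm14150 stood at 0.586, 0.374 and 0.867 CPM in the Cre libraries and at 23.7, 32.0 and 28.9 CPM in the TKO libraries. Its lowest TKO level was thus far above its highest Cre level, with 59 counts summed over Cre and 2864 over TKO, a ratio of 47.6 (95% counting interval 36.8 to 62.8, which covers counting error only; adjusted p = 0.000265, edgeR). Gm3756 stood at 0.720, 0.623 and 0.936 CPM in Cre and at 12.95, 17.3 and 13.5 CPM in TKO, a log2 fold change of 4.26 ± 0.21 (adjusted p = 0.000265). Gm6682 stood at 0.187, 0.436 and 0.208 CPM in Cre and at 3.30, 3.05 and 2.89 CPM in TKO, a log2 fold change of 3.47 ± 0.32 (adjusted p = 0.0139). All 3 are near-copies of alpha tubulin genes, whose products pair with beta tubulin to form microtubules. By alignment of the annotated transcripts, Gm14150 (chr2:151458956-151460309, GRCm38) matched Tuba1b at 98.60% identity, Gm3756 (chr9:31935446-31936800) matched Tuba1b at 98.67%, and Gm6682 (chr12:4782170-4783515) matched Tuba1c at 97.78%.

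Reads from copies this close to their coding genes are told apart by few bases, and the sources used here do not say how reads matching several places were counted, so the levels of these copies and of their coding genes are uncertain. Tuba1b stood at 891, 847 and 804 CPM in Cre and at 652, 706 and 647 CPM in TKO. The ranges did not overlap, but the difference did not pass in edgeR (log2 fold change -0.34 ± 0.08, adjusted p = 0.226) and did in DESeq2 (adjusted p = 0.0116). Tuba1c went the other way, at 389, 363 and 307.2 CPM in Cre and 476, 428 and 432 CPM in TKO, without passing in edgeR (0.33 ± 0.10, adjusted p = 0.280) or in DESeq2 (adjusted p = 0.121). The 3 copies summed to 1.64 ± 0.318 CPM in Cre and 45.9 ± 6.23 CPM in TKO (SD, n = 3 each), while Tuba1b and Tuba1c together lay at 1200.5 ± 84.8 CPM and 1114 ± 30.1 CPM, respectively. Summed over all 5 genes, alpha tubulin in TKO was 96.5% of that in Cre.

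The remaining pseudogene, Gm14287 (chr2:157528869-157528985), is a short fragment that matched Ywhaz, the gene of the adaptor protein 14-3-3 zeta, without a mismatch over 92.3% of its length. It had 5 counts summed over the Cre libraries and 379 over TKO, with 0.0267, 0 and 0.139 CPM in Cre and 5.12, 2.96 and 3.01 CPM in TKO. The ratio of the sums was 74.4, with a 95% counting interval of 31.6 to 230 (adjusted p = 0.0153, edgeR). Ywhaz itself had a log2 fold change of 0.03.

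The 5 coding genes called were Matn2, Rpl30, Polr2k, Deptor and Hddc3, of which the first 4 lie on chromosome 15. Rpl30, a protein of the large ribosomal subunit, stood at 524, 552 and 442 CPM in the Cre libraries and at 190, 184 and 195 CPM in the TKO libraries. It fell by 1.42 ± 0.10 on the log2 scale (adjusted p = 0.00217), with every TKO library below every Cre library. Polr2k, a small subunit shared by the nuclear RNA polymerases, stood at 19.005, 23.2 and 19.5 CPM in Cre and at 9.53, 8.69 and 9.08 CPM in TKO, so that it fell by 1.18 ± 0.11 (adjusted p = 0.0146). Deptor, an inhibitor of the growth kinase mTOR, stood at 16.5, 17.4 and 16.0 CPM in Cre and at 8.42, 8.78 and 7.56 CPM in TKO and fell by 1.01 ± 0.11 (adjusted p = 0.0219). Matn2 encodes matrilin-2, a filament-forming glycoprotein of the extracellular matrix, and was the only coding gene called higher. It stood at 10.8, 11.9 and 11.1 CPM in Cre and at 21.7, 22.2 and 23.9 CPM in TKO, a log2 fold change of 1.01 ± 0.09 (adjusted p = 0.0139).

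Matn2 (chr15:34306677-34436273, plus strand) and Rpl30 (chr15:34440505-34443640, minus strand) are neighbours whose 3′ ends face each other across 4.23 kb, and they moved in opposite directions. Rpl30 also has a processed copy, Gm12191 on chromosome 11, which matched it at 99.71% identity and stood at 2.27, 2.58 and 2.29 CPM in Cre and at 5.78, 4.65 and 5.22 CPM in TKO. That copy did not pass in edgeR (log2 fold change 1.13 ± 0.17, adjusted p = 0.0844) and was called higher by DESeq2 (adjusted p = 0.000111). The 60 bases below, from base 37 of the Rpl30 coding sequence, hold the single base by which the copy differs, in capitals.
Rpl30: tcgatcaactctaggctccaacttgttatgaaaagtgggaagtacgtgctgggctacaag
Gm12191: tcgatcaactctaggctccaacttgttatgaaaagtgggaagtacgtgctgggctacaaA

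Rpl30 and the copy together lay at 508 ± 57.1 CPM in Cre and 195 ± 6.14 CPM in TKO (SD, n = 3 each), 38.3% of the Cre level. How reads matching both genes were counted is not stated in the sources used here, and the cause of the drop in Rpl30 was not tested.

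The other 2 calls lie on chromosome 7. AU020206 (chr7:75769038-75782099, minus strand), annotated as a long intergenic noncoding RNA, stood at 36.5, 50.6 and 50.8 CPM in the Cre libraries and at 15.7, 17.6 and 16.96 CPM in TKO, and fell by 1.46 ± 0.14 (adjusted p = 0.0139). Hddc3 (chr7:80343104-80350547, plus strand) encodes a hydrolase known as MESH1, stood at 4.96, 4.30 and 4.12 CPM in Cre and at 0.996, 1.32 and 0.876 CPM in TKO, and fell by 2.07 ± 0.22 (adjusted p = 0.0196). The TKO levels of Hddc3 were all under a Cre level that was itself low. Leaving out each library in turn, Gm14150, Gm3756 and Rpl30 kept an adjusted p under 0.05 in all 6 fits. Hddc3 and Deptor lost it in all 6, Gm6682, Matn2 and Polr2k in 5, and Gm14287 and AU020206 in 4, with a highest adjusted p of 0.0713 for Gm6682, 0.0767 for Gm14287, 0.0967 for Matn2, 0.0819 for AU020206, 0.101 for Polr2k, 0.115 for Hddc3 and 0.152 for Deptor.

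Of the 10 calls, 4 lie on chromosome 15, as do 3.97% of the tested genes with a position. Another 4 are copies on other chromosomes whose closest coding gene lies on chromosome 15. The share of all tested copies with such a coding gene was not computed, so the 3.97% is no background for them. Tuba1b (from chr15:98931425) and Tuba1c (from chr15:99029891) lie more than 20 Mb from Klf10. Ywhaz (from chr15:36770770), the closest coding gene of Gm14287, lies within 5 Mb of it. Klf10 is at chr15:38291463-38300706. Within 5 Mb of it, 22 of 41 tested genes (53.7%) had an unadjusted p under 0.05 in the fibroblasts, 15 of them higher and 7 lower, and 3 of the edgeR calls (Matn2, Rpl30 and Polr2k) were among them. A second stretch was chosen after its values were seen: within 5 Mb of Hddc3, 22 of 76 genes (28.9%) did so, 10 higher and 12 lower. Of all other genes with a position, 1822 of 15279 (11.9%) did. DESeq2 called 29.7% and 12.9% of the genes it tested in the 2 stretches and 2.86% of the others. In edgeR, the share with an unadjusted p under 0.05 was 52.5% within 10 Mb and 39.8% within 20 Mb of Klf10. Around Hddc3 it was 25.2% and 15.7%. Beyond 20 Mb from Klf10 the share on chromosome 15 was 11.7%, and beyond 20 Mb from Hddc3 it was 12.3% on chromosome 7. The remaining chromosome 15 call, Deptor, lies 16.9 Mb from Klf10. Both directions occurred within each stretch. The gene lists described next had 10 tested members within these 5 Mb windows, of which Acan, Angpt1, Anpep, Matn2, Osr2 and Rspo2 had an unadjusted p under 0.05.

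**Figure D3:**
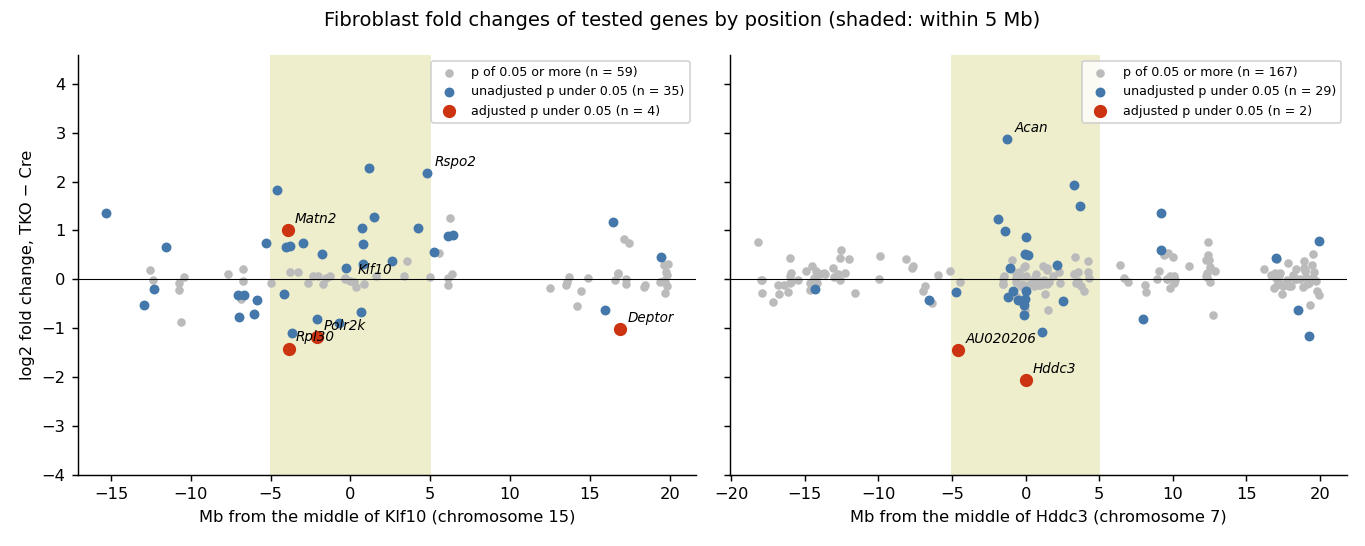
Log2 fold change (TKO over Cre) of tested genes against their distance in Mb from Klf10 on chromosome 15 and from Hddc3 on chromosome 7, with the 5 Mb windows shaded. Within the windows 53.7% and 28.9% of the genes have an unadjusted p under 0.05, against 11.9% of the other genes with a position.

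Near Klf10, the genes that missed the edgeR threshold but had unadjusted p under 0.05 included secreted and membrane signalling genes. Rspo2, which encodes a secreted amplifier of Wnt signalling, stood at 0.773, 0.685 and 1.28 CPM in Cre and at 3.24, 5.11 and 3.94 CPM in TKO, a log2 fold change of 2.17 ± 0.30 (adjusted p = 0.0832 in edgeR, 3.91e-08 in DESeq2). Sdc2, a heparan sulfate proteoglycan of the cell surface that lies just outside the 5 Mb window, had 0.74 ± 0.11, Laptm4b, a lysosomal membrane protein, had 0.67 ± 0.09, and Ankrd46 had 0.51 ± 0.07, each with an adjusted p of 0.0832 in edgeR and a DESeq2 call. Fzd6, a Wnt receptor, had 1.04 ± 0.29 and Angpt1, the ligand of the vascular receptor TIE2, had 1.06 ± 0.31 (adjusted p = 0.265 and 0.273). Spag1 and Ncald lay lower in TKO, at -0.82 ± 0.20 and -0.90 ± 0.27, called by DESeq2 alone. Around Hddc3, the Golgi mannosidase gene Man2a2 had a log2 fold change of 0.87 ± 0.15, the myosin chaperone gene Unc45a 0.51 ± 0.10 and the exonuclease gene Isg20 0.98 ± 0.17, while Ngrn had -0.73 ± 0.11, the semaphorin gene Sema4b -0.53 ± 0.10 and Mfge8, a bridging protein in the clearance of dying cells, -0.37 ± 0.06. Acan, the large proteoglycan of cartilage, had 13 counts summed over the Cre libraries and 100 over TKO, a ratio of 7.55 (95% counting interval 4.22 to 14.7). None of these 6 genes or Acan passed in edgeR, and DESeq2 called all 7.

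Away from these stretches, Col4a5, Lurap1l and Dhx34 missed the edgeR threshold narrowly. Col4a5 (chrX:141475385-141689234), a collagen IV chain of basement membranes, stood at 36.1, 30.4 and 31.9 CPM in Cre and at 51.3, 58.1 and 63.1 CPM in TKO, with no overlap and a log2 fold change of 0.81 ± 0.10 (adjusted p = 0.0671 in edgeR, 2.36e-07 in DESeq2). Lurap1l had 0.61 ± 0.08 (adjusted p = 0.0832) with TKO libraries at 50.2 to 55.7 CPM and Cre libraries at 32.5 to 37.8 CPM. Dhx34, an RNA helicase of nonsense-mediated decay, stood at 23.8, 25.4 and 24.1 CPM in Cre and at 11.95, 15.5 and 11.5 CPM in TKO (-0.91 ± 0.13, adjusted p = 0.0832 in edgeR, 4.13e-07 in DESeq2).

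The study's question being fibrosis, 54 gene lists were described by the number of their tested members with an unadjusted p under 0.05, to be read against 5.55% higher and 6.56% lower over all genes, and by their median log2 fold change beside 0.01 over all genes. The lone edgeR call in any list was Matn2, so every other member named from here on did not pass in edgeR. Values without Cre replicate 2, the library richest in macrophage RNA, are given beside the medians and counts that they move by more than 1.5 times in the lists described at length. In that fit the background was itself smaller, 3.16% higher and 3.81% lower.

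Collagen genes had mostly positive fold changes in TKO fibroblasts, and none was called by edgeR. Of 11 fibrillar collagen genes, which encode the rope-like collagens of scar tissue, 3 were higher and 1 lower at an unadjusted p under 0.05, and the median was 0.42, or 0.29 without Cre replicate 2. Col3a1 stood at 654, 375 and 976 CPM in Cre and at 1015, 1809 and 1128 CPM in TKO. Its lowest TKO library was close to its highest Cre library, and the log2 fold change was 0.98 ± 0.34 (adjusted p = 0.322). Col1a1, the main chain of collagen I, overlapped between genotypes, at 2127, 1176 and 2012 CPM in Cre and 1962, 2753 and 2389 CPM in TKO (0.42 ± 0.22, adjusted p = 0.498). Among 27 other collagens 10 were higher and 0 lower, with a median of 0.25 and 4 DESeq2 calls. Without Cre replicate 2 they were 5 and 1, with a median of 0.17. Col8a1, a short-chain network collagen made in vessel walls, stood at 208, 124 and 176 CPM in Cre and at 293, 309 and 310 CPM in TKO (0.85 ± 0.17, adjusted p = 0.208 in edgeR, 0.000106 in DESeq2). Col6a3 of the beaded filament collagen VI had 0.49 ± 0.12 and Col4a6 of basement membranes 0.67 ± 0.16, both called by DESeq2 (adjusted p = 0.0177 and 0.0268).

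Proteoglycans and glycoproteins that decorate collagen also had mostly positive fold changes. Of 13 small leucine-rich proteoglycans, which bind and space collagen fibrils, 3 were higher and 0 lower, with a median of 0.34 that was 0.09 without Cre replicate 2. Fmod, fibromodulin, stood at 8.08, 7.91 and 7.28 CPM in Cre and at 15.7, 12.01 and 13.9 CPM in TKO, with no overlap (0.84 ± 0.13, adjusted p = 0.114 in edgeR, 0.000106 in DESeq2). Ogn, osteoglycin, had 0.76 ± 0.21 (adjusted p = 0.262 in edgeR, 0.0116 in DESeq2). Among 17 tendon and cartilage-like genes 5 were higher and 0 lower, with a median of 0.53, or 0.28 without Cre replicate 2. Comp, a glycoprotein that helps collagen fibrils assemble, stood at 16.1, 14.7 and 15.8 CPM in Cre and at 26.2, 18.7 and 23.4 CPM in TKO (0.55 ± 0.13, adjusted p = 0.230). Of 33 matricellular and adhesive glycoproteins 9 were higher and 1 lower, with Matn2 among the 9 and a median of 0.22, and without Cre replicate 2 they were 5 and 1 with a median of 0.14. Nov, also called CCN3, had 1.18 ± 0.25 and Tgfbi, a TGF-beta-induced adhesion protein, -0.99 ± 0.24, both called by DESeq2. Tgfbi was highest in Cre replicate 2 at 124 CPM, against 64.2 and 64.8 CPM in the other Cre libraries and 40.2 to 45.1 CPM in TKO. Fn1, fibronectin, had 0.47 ± 0.17 (adjusted p = 0.322) with overlapping groups. Of 12 large proteoglycan and hyaluronan genes 1 was higher and 2 lower, with a median of -0.05 (2 and 0 without Cre replicate 2, median -0.03). Of 20 elastic fibre and microfibril genes 4 were higher and 0 lower (median 0.15), with 2 higher without Cre replicate 2.

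Among enzymes that build and cut matrix no gene was called by edgeR. Of 25 genes for collagen folding and crosslinking 4 were higher and 2 lower (median 0.16), or 3 and 0 without Cre replicate 2 (median 0.09), and DESeq2 called Loxl3, a lysyl oxidase that crosslinks collagen, P4ha3, a prolyl hydroxylase, and Plod2, a lysyl hydroxylase, at 0.65 ± 0.17, 0.79 ± 0.23 and 0.49 ± 0.12. Among 37 matrix proteases and inhibitors 5 were higher and 6 lower, or 3 and 6 without Cre replicate 2. Timp3, an inhibitor of metalloproteinases, stood at 392, 278 and 251 CPM in Cre and at 478, 505 and 572 CPM in TKO (0.76 ± 0.16, adjusted p = 0.217 in edgeR, 0.000857 in DESeq2), and Mmp2, gelatinase A, had 0.61 ± 0.14. The 6 lower members were the metalloproteinase genes Mmp8, Mmp9, Mmp10, Mmp12, Mmp13 and Mmp14, of which fibroblasts make some and leukocytes others. Mmp9 stood at 21.7, 31.9 and 31.6 CPM in Cre and at 12.7, 13.6 and 5.49 CPM in TKO (-1.42 ± 0.32, adjusted p = 0.223), and Mmp12 had -1.28 ± 0.33 with its highest level, 154 CPM, in Cre replicate 2. Mmp10, stromelysin 2, stood at 1.79, 6.10 and 3.47 CPM in Cre and at 1.65, 0.431 and 0.876 CPM in TKO (-1.92 ± 0.55, adjusted p = 0.273), and the collagenase gene Mmp13 had -1.35 ± 0.34. Mmp9 and Mmp10 were called by DESeq2 and Mmp12 was not. Of 28 integrins and matrix receptors 4 were higher and 2 lower, among them Itgb8 (1.34 ± 0.36), which activates latent TGF-beta, and Itgb3 (-0.67 ± 0.19).

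**Figure D4:**
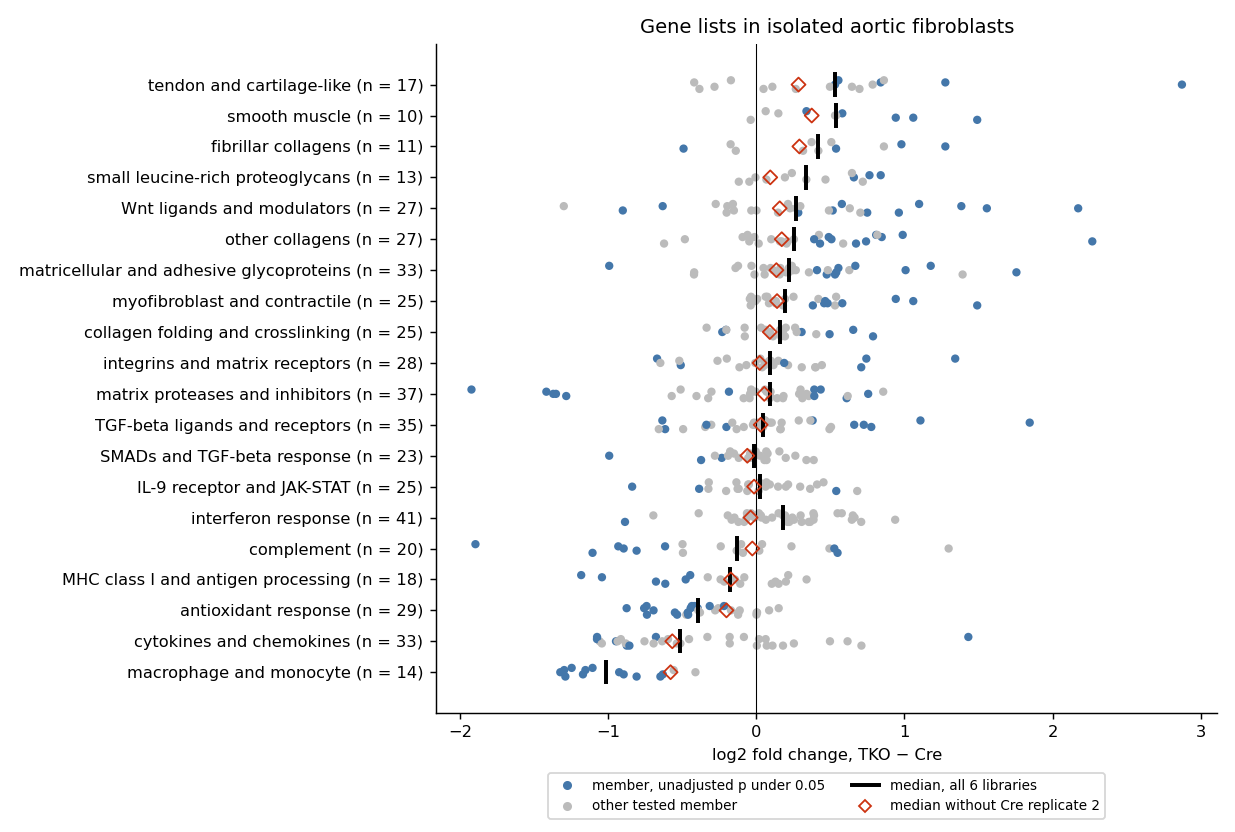
Log2 fold change (TKO over Cre) of every tested member of the main gene lists, 1 point per gene, with the list's median over all 6 libraries (bar) and without Cre replicate 2 (open diamond). Collagen, tendon-like and smooth muscle lists lie right of 0, the macrophage and antioxidant lists lie left of it, and the macrophage median goes from -1.02 to -0.58 without that library.

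Contractile genes, the hallmark of myofibroblasts, had mostly positive fold changes and no edgeR call. Of 25 myofibroblast and contractile genes 8 were higher and 0 lower (median 0.19), with 5 higher without Cre replicate 2, and of 10 smooth muscle markers 5 were higher and 0 lower (median 0.53, 0.37 without Cre replicate 2). Acta2, smooth muscle actin, stood at 1557, 818 and 881 CPM in Cre and at 1502, 1434 and 1767 CPM in TKO, so that Cre replicate 1 lay among the TKO libraries (0.53 ± 0.23, adjusted p = 0.421). Lmod1 and Cnn1, regulators of smooth muscle actin filaments, had 0.94 ± 0.25 and 1.06 ± 0.33, and DESeq2 called both. Of 6 pericyte markers 2 were higher (median 0.51), and of 8 Schwann and neural markers 4 were higher (median 0.44). Without Cre replicate 2, 1 member of each was higher, with medians of 0.33 and 0.29. Fewer cells of a type and less RNA per cell cannot be told apart in bulk libraries, and the part of smooth muscle RNA in the contractile values was not tested.

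Ligands of the TGF-beta family did not move as a block. Of 35 TGF-beta ligands and receptors 6 were higher and 4 lower (median 0.05, 0.03 without Cre replicate 2), with 4 DESeq2 calls higher and 2 lower. Tgfb1 stood at 211, 265 and 213 CPM in Cre and at 163, 130 and 157 CPM in TKO (-0.62 ± 0.12, adjusted p = 0.209 in edgeR, 0.000673 in DESeq2). Tgfb2 went the other way, at 14.6, 12.3 and 13.4 CPM in Cre and 20.8, 26.6 and 21.6 CPM in TKO (0.78 ± 0.13, adjusted p = 0.125 in edgeR, 9.93e-05 in DESeq2), and so did Tgfb3 at 58.1, 41.6 and 44.0 CPM against 70.6, 83.5 and 83.5 CPM (0.73 ± 0.14, adjusted p = 0.184). The groups did not overlap in these 3 ligand genes, which were chosen by their p from the list, where over all tested genes that held for 8.86% higher and 8.45% lower. Downstream, 0 of 23 genes for SMADs and the TGF-beta response were higher and 3 lower (median -0.02, -0.06 without Cre replicate 2).

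Among Wnt pathway genes more were higher than lower. Of 27 Wnt ligands and modulators 9 were higher and 2 lower (median 0.27), or 5 and 2 without Cre replicate 2 (median 0.16), with 3 DESeq2 calls higher and 2 lower. Frzb, a secreted decoy for Wnt ligands, stood at 13.6, 10.3 and 21.98 CPM in Cre and at 33.5, 55.3 and 30.8 CPM in TKO (1.38 ± 0.31, adjusted p = 0.223). Wnt11 and Rspo1 had -0.63 ± 0.14 and -0.90 ± 0.28. Rspo2 and Angpt1, the latter a TIE2 ligand and not a Wnt gene, lie within 5 Mb of Klf10. So does Fzd6, which is in none of the gene lists. Of 15 Notch pathway genes 1 was higher and 2 lower, and of 42 growth factors and receptors 7 were higher and 6 lower (medians 0.03 and 0.06). Without Cre replicate 2 these medians were 0.06 and 0.03, and the Notch pathway genes had 0 higher and 1 lower. The neurotrophin gene Bdnf had 0.75 ± 0.19, and Igfbp3, a carrier of insulin-like growth factors, had -0.86 ± 0.22, with 48.4 CPM in Cre replicate 2 against 25.2 and 34.2 CPM in the other Cre libraries. Of 44 axon guidance genes 12 were higher and 4 lower (median 0.12), but 4 and 1 without Cre replicate 2.

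Macrophage markers were the list that lay lowest. All 14 had negative log2 fold changes, 12 of them with an unadjusted p under 0.05 and 4 with a DESeq2 call, and the median was -1.02. Without Cre replicate 2 the median was -0.58 and 10 of the 14 were lower at an unadjusted p under 0.05. Emr1, the F4/80 antigen, stood at 26.4, 56.5 and 28.6 CPM in Cre and at 16.8, 13.9 and 13.8 CPM in TKO (-1.32 ± 0.28, adjusted p = 0.217 in edgeR, 3e-05 in DESeq2). Lyz2, lysozyme, stood at 720, 1823 and 590 CPM in Cre and at 521, 364 and 434 CPM in TKO (-1.25 ± 0.39, adjusted p = 0.288). Both markers separated the genotypes and were highest in Cre replicate 2 by a wide margin.

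Outside the marker list, complement, MHC class I and cytokine lists had more members lower than higher at an unadjusted p under 0.05. C5ar1, the receptor for the complement fragment C5a, stood at 31.1, 68.6 and 34.8 CPM in Cre and at 11.3, 15.2 and 9.63 CPM in TKO (-1.90 ± 0.31, adjusted p = 0.137 in edgeR, 0.000732 in DESeq2). Of 20 complement genes 2 were higher and 6 lower, and the median of -0.13 was -0.03 without Cre replicate 2. Of 18 genes for MHC class I and antigen processing 0 were higher and 6 lower (median -0.18; 4 lower without Cre replicate 2), led by H2-Q7 at -1.18 ± 0.26 and H2-Q6 at -1.04 ± 0.24, which are near-identical genes whose reads the counting could divide. Of 33 cytokines and chemokines 1 was higher and 6 lower (0 and 8 without Cre replicate 2), and the median of -0.51 ranged from -0.72 to 0.05 on leaving out each library. The chemokine gene Cxcl16 had -1.08 ± 0.20, and Il11, a cytokine that fibroblasts make in response to TGF-beta, stood at 321, 493 and 353 CPM in Cre and at 246, 97.2 and 210 CPM in TKO (-1.08 ± 0.32, adjusted p = 0.273). Il1rl1, the IL-33 receptor, stood at 79.0, 116 and 90.0 CPM in Cre and at 54.4, 55.3 and 49.5 CPM in TKO (-0.84 ± 0.14, adjusted p = 0.124 in edgeR, 5.45e-06 in DESeq2). Among 25 genes of the IL-9 receptor and JAK-STAT list 1 was higher and 2 lower (median 0.02), or 2 and 1 without Cre replicate 2 (median -0.02). Of 41 interferon response genes 0 were higher and 1 lower (median 0.18), or 1 and 1 without Cre replicate 2 (median -0.04). The part of macrophage RNA, summed at 961 to 2599 CPM in Cre and 573 to 805 CPM in TKO, in these values was not tested.

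Antioxidant response genes, many of them targets of the stress factor NRF2, were the non-immune list with the most members lower. Of 29 genes 15 were lower and 0 higher at an unadjusted p under 0.05, 5 of them with a DESeq2 call, and the median was -0.39, or -0.20 with 7 lower without Cre replicate 2. Hmox1, heme oxygenase 1, stood at 1464.8, 2311 and 1265 CPM in Cre and at 1031, 701 and 1014 CPM in TKO (-0.88 ± 0.24, adjusted p = 0.262 in edgeR, 0.00266 in DESeq2). Fth1, the ferritin heavy chain, stood at 3636, 5978 and 3278 CPM in Cre and at 2955, 2257 and 2410 CPM in TKO (-0.76 ± 0.23, adjusted p = 0.278). Slc7a11, the cystine transporter, overlapped between genotypes, at 386, 609 and 553 CPM in Cre and 397, 249 and 282 CPM in TKO (-0.74 ± 0.21, adjusted p = 0.273 in edgeR, 0.00848 in DESeq2). Txnrd1, thioredoxin reductase, did not overlap (-0.40 ± 0.11). Among 24 stromal and adipogenic genes 1 was higher and 9 lower (median -0.05), or 0 and 7 without Cre replicate 2 (median -0.10), with Plin2, a lipid droplet coat protein, at -0.68 ± 0.16, the transcription factor gene Cebpb at -0.90 ± 0.24 and the lipase gene Lpl at -0.62 ± 0.13, all called by DESeq2. In Hmox1, Fth1 and Plin2 the highest library was Cre replicate 2, as in the macrophage markers; the part of macrophage RNA was not tested here either.

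Among fibroblast identity and patterning genes none was called by edgeR. Of 19 fibroblast markers 4 were higher and 0 lower (median 0.24, 0.15 without Cre replicate 2), with Thy1 at 33.3, 25.3 and 31.9 CPM in Cre and 40.6, 51.5 and 47.9 CPM in TKO (0.63 ± 0.13, adjusted p = 0.217 in edgeR, 0.00244 in DESeq2) and S100a4 at 0.68 ± 0.17. Of 56 mesenchymal transcription factors 7 were higher and 1 lower (median 0.09, 0.04 without Cre replicate 2), including Prrx2 at 0.87 ± 0.21 and Foxf2 at -0.84 ± 0.18. Of 29 Hox genes, which record position along the body axis, 3 were higher and 2 lower, and both lower genes, Hoxa11 (-1.17 ± 0.31) and Hoxc11 (-1.09 ± 0.25), were called by DESeq2. Adventitial progenitor genes had 2 higher and 3 lower of 18, osteogenic genes 1 and 0 of 14, retinoid and steroid genes 3 and 4 of 24, and renin-angiotensin and vasoactive genes 4 and 3 of 26. Without Cre replicate 2 these were 1 and 1, 1 and 0, 1 and 3, and 1 and 1. Ion channel and synaptic genes had 7 higher and 2 lower of 33 (6 and 0 without Cre replicate 2), among them the stretch-gated channel gene Piezo2 at 0.82 ± 0.20.

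Growth, metabolic and stress lists differed in how many members passed the same unadjusted p. Proliferation genes had 0 higher and 0 lower of 24 (median 0.10, 0.17 without Cre replicate 2), cholesterol and lipid synthesis 2 and 0 of 25, glycolysis and hypoxia 1 and 3 of 27, the unfolded protein and amino acid response 0 and 2 of 27, p53 and senescence 5 and 0 of 22, immediate early genes 0 and 4 of 17, and circadian clock genes 1 and 3 of 19. Without Cre replicate 2, p53 and senescence genes had 3 higher and immediate early genes 1 lower. Cholesterol and lipid synthesis genes then had 1 higher, and glycolysis and hypoxia genes 0 higher and 1 lower. Of 34 genes for oxidative phosphorylation 30 had negative log2 fold changes, but their median was -0.05 and 2 had an unadjusted p under 0.05 (-0.03 and 0 without Cre replicate 2). Among markers of other cells, T cell and B or plasma cell lists had 0 members past that p in either direction, endothelial markers had 3 higher and 1 lower of 12 (median 0.20; 1 and 1 without Cre replicate 2), mesothelial markers 1 and 0 of 7, mast cell markers 0 and 1 of 4, and fat, skeletal muscle, epithelial and red cell markers 0. The sex-linked list of 5 genes had 1 higher.

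Whether the fibroblast differences were seen in whole aorta was asked with the 2 tissue tables of the same genotypes, non-stripped aorta (3 Cre, 3 TKO) and stripped aorta (4 Cre, 2 TKO), whose libraries are not the fibroblast libraries. The sample titles of the set called stripped here read Nonstripped aorta, while its counts were deposited under the name Stripped aorta. The tables were counted separately, so the effects, not the levels, were compared. Effects within a tissue are from an edgeR fit of its own table, with 15162 genes in non-stripped and 16688 in stripped aorta. Differences between tables are from 1 edgeR fit of 18479 genes. In both tissues, too, the numbers in the library labels run together with genotype. A batch behind them cannot be told apart from genotype and would enter these differences. The drop in Rpl30 was shared with non-stripped aorta, where 0.119% of the genes were called and its log2 fold change was -1.26 (adjusted p = 0.00691), and it was -0.72 in stripped aorta (adjusted p = 0.117). Polr2k had -0.94 (adjusted p = 0.0381) and -0.93 (adjusted p = 0.117) in the same tissues. Gm14150 was called higher in stripped aorta as well (4.07, adjusted p = 0.0209), where 0.024% of the genes were called. AU020206 and Hddc3 were called in neither tissue. Matn2 had a log2 fold change of -0.35 in non-stripped aorta and 0.53 in stripped aorta, and Deptor had 0.05 and 0.38.

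The difference of the genotype effect itself passed for 26 genes against non-stripped aorta (0.141%) and for 37 against stripped aorta (0.2%). Leaving out 1 fibroblast library gave 3 to 66 and 9 to 106 genes. Matn2 exceeded its effect in non-stripped aorta by 1.39 (adjusted p = 0.0172), and the difference for Deptor was -1.03 (adjusted p = 0.0394) there and -1.40 (adjusted p = 0.00664) against stripped aorta. The paired basement membrane genes Col4a5 and Col4a6, which lie head to head on the X chromosome, stood out: Col4a6 had -1.20 in non-stripped and -0.63 in stripped aorta, so that the fibroblast effect of 0.67 lay 1.91 and 1.30 above them (adjusted p = 0.00221 and 0.00918). Slc7a11 had a log2 fold change of 4.24 (adjusted p = 0.0209) in stripped aorta, with 0.327 ± 0.120 CPM in Cre (SD, n = 4) and 6.18 ± 0.719 CPM in TKO (SD, n = 2), and the difference, fibroblasts minus stripped aorta, was -4.98 (adjusted p = 0.000270). In these tissue tables the share of genes with an unadjusted p under 0.05 within 5 Mb of Klf10 was 43.2% and 44.2%, against 17.9% and 13.7% of the other genes. Within 5 Mb of Hddc3 the share was 15.6% in non-stripped and 18.8% in stripped aorta, and edgeR called 0 genes there in either tissue.

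**Figure D5:**
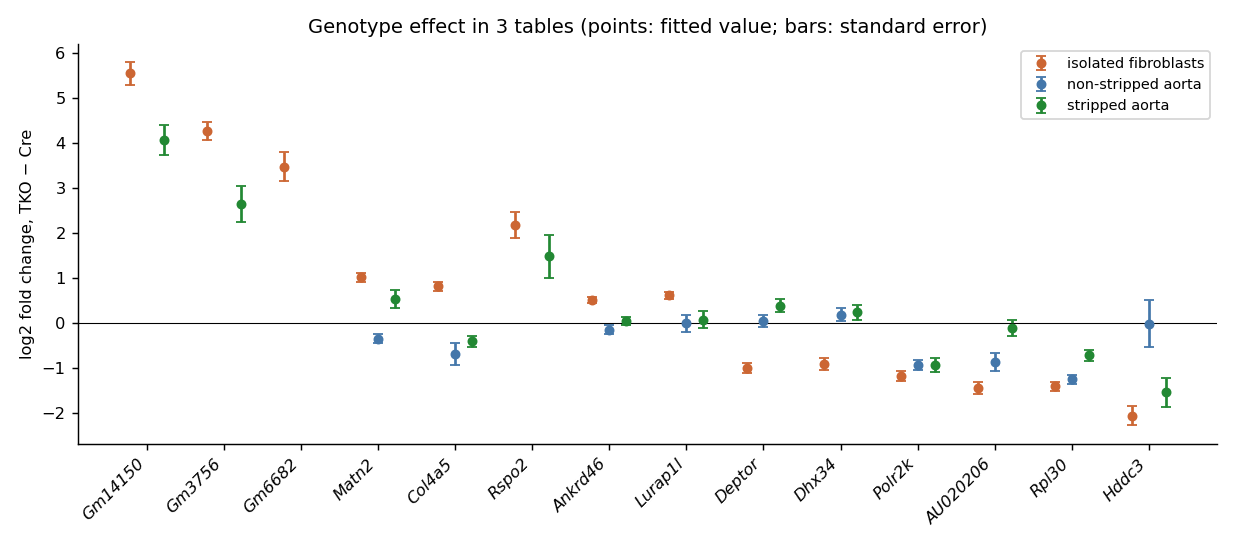
Log2 fold change (TKO over Cre, with its standard error as bars) of genes named in the text in fibroblasts, non-stripped aorta and stripped aorta, 1 colour per table. Rpl30 and Polr2k lie below 0 in all 3 tables, while Matn2 and Col4a5 lie above 0 in fibroblasts and below 0 in non-stripped aorta, and a point is missing where a gene was not tested in that table.

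Promoters were searched for short motifs, as a description only, in RefSeq's windows of 250 bases before to 50 after a start (GRCm38.p6). The first window listed for a gene was used, and these windows covered 11324 of the 15673 tested genes. Only 2 of the 10 edgeR calls had such a window, so the genes called by DESeq2 were used, 96 of 149 higher and 205 of 275 lower with a promoter. Both strands were read. The letters GGAATG, bound by TEAD factors that act in mechanical signalling, were in 19.8% of promoters of higher genes, 10.7% of lower genes and 12.1% of all tested genes. The AP-1 letters TGANTCA were in 6.2%, 7.3% and 5.2%, the STAT letters TTCNNNGAA in 9.4%, 6.3% and 6.8%, and the interferon-stimulated response element in 2.1%, 2.4% and 3.2%. Of letters read by zinc finger factors such as the KLF and SP families, GGGCGG was in 56.2%, 50.7% and 62.6% and CCACCC in 44.8%, 47.3% and 37.3%. The E-box CACGTG was in 6.2%, 7.8% and 9.9%. In the bases before the start alone, GGAATG was in 13.5%, 8.8% and 10.6% and CACGTG in 5.2%, 4.9% and 8.2%. A match here is a string of letters, and nothing was measured at these promoters.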

How the data were processed

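Gene counts of RNA sequencing were deposited by the authors as whole-number read counts per gene, 1 table each for fibroblasts, non-stripped aorta and stripped aorta. Per the submitters' processing notes, the tools named are Trimmomatic 0.36, STAR 2.5.2b and featureCounts of Subread 1.5.2 with the build GRCm38, in no stated order, and strand, multiple matches and annotation are not given in the sources used here. A nameless row, which held up to 0.000467% of the reads in a library, was left out, as was 1 column of the stripped table that matches no label. Genes passing filterByExpr (minimum count 10) were tested with edgeR 4.0.16 (TMM factors, quasi-likelihood test, Benjamini-Hochberg, 0.05) in R 4.3.3, 3 TKO against 3 Cre, with no covariate. CPM, counts scaled by total and TMM factor, were computed from the deposited counts. The genotype effect was compared between tables in 1 fit of the 3 tables with an interaction contrast. Alternatives were DESeq2 1.42.0, limma-voom 3.58.1, other scaling and filters, the joint fit, and leaving out each library; their effect stands in the closing section. The fits were tested on simulated data. Positions are those of GENCODE vM21 on GRCm38, transcripts were matched with blastn 2.17.0 (at least 80% of the copy aligned), and promoters are RefSeq's.

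Genes were named by a rule: Klf10, Il9 and Il9r, the called genes (in mean CPM of at least 1, without overlap between groups), where fewer than 5 passed the 5 with the smallest p per direction, and the most abundant members of each list. Predicted genes and pseudogenes were left out of that rule and are named as the calls they are. List members with the smallest p (up to 5 per list), genes in the chromosome stretches and genes whose effect differed between tables were chosen after their values were seen. The experiment and the 54 gene lists were chosen with earlier results of these data known. With 3 libraries a group, the smallest possible exact permutation p is 0.1, so no exact test was run on single values.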

Additional observations from a re-analysis of the deposited data

Results flagged for a closer look

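The genotype effect in fibroblasts differed from that in whole aorta, by an edgeR test of the difference itself, for 16 of the genes described, given as fibroblasts minus tissue on the log2 scale. Their causes were not tested, and the stripped aorta had 2 TKO libraries. Against non-stripped aorta the difference was 1.39 for Matn2 (adjusted p = 0.0172), -1.03 for Deptor (0.0394), 1.54 for Col4a5 (0.0225), 1.91 for Col4a6 (0.00221), 0.70 for Ankrd46 (0.0279) and 1.35 for Ddr1 (0.0195), the collagen receptor. It was 1.17 for Laptm4b (0.00221), 2.29 for the Wnt receptor gene Fzd6 (0.0373) and 0.88 for Unc45a (0.0353). For Ddr1 the effect was -0.92 in non-stripped aorta (adjusted p = 0.0276) and 0.40 in fibroblasts (adjusted p = 0.426).

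Against stripped aorta the difference was -1.40 for Deptor (adjusted p = 0.00664), 1.22 for Col4a5 (0.0477), 1.30 for Col4a6 (0.00918) and -1.15 for Dhx34 (0.0477). It was -4.98 for Slc7a11 (0.000270), -1.87 for Lpl (0.00651), -2.66 for the fatty acid transporter gene Cd36 (0.0443) and -1.68 for Emr1 (0.0477). It was 2.06 for the smooth muscle coactivator gene Myocd (0.0346) and 1.39 for the netrin receptor gene Unc5b (0.00416). Col4a6 against both tissues, Laptm4b against non-stripped aorta, and Deptor, Slc7a11, Lpl and Unc5b against stripped aorta passed under all 8 alternatives tried. The others passed under 2 to 6 of them.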

How the results depend on the processing

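The 5 higher and 5 lower calls became 149 and 275 with DESeq2, 218 and 464 with no filter on low counts, and 32 and 36 in the joint fit of 3 tables. Leaving out 1 library gave 2 to 5 higher and 1 to 5 lower. All 10 calls were kept with DESeq2, limma-voom, RLE factors, library totals, no filter and a mean CPM of at least 1, and 9 in the joint fit, but 4, 8 and 4 without Cre replicates 1, 2 and 3 and 3 without any 1 TKO library. Klf10, called in no setting, ranged from -0.112 to 0.0308 on leaving out 1 library, with its sign turned without Cre replicate 1 (0.0276) and TKO replicate 2 (0.0308). The share of genes with an unadjusted p under 0.05 within 5 Mb of Klf10 was 24.4% with DESeq2 (19 of 78) and 30.8% with no filter (24 of 78). Both took in low-count genes that the main fit, with 22 of 41, left out. The share of the other genes was 6.29% with DESeq2 and 9.46% with no filter. Around Hddc3 the share was 17.7% with DESeq2 (22 of 124, against 22 of 76 in the main fit). Within 20 Mb of Hddc3 it was 15.7% in the main fit. Genes whose effect differed from non-stripped aorta numbered 3 to 66 on leaving out 1 fibroblast library, 3 of them without TKO replicate 2 or 3 and 66 without Cre replicate 1. Against stripped aorta they numbered 9 to 106 and 16 with only those 2 tables. Promoter shares of all tested genes (those of called genes stand with the motifs for GGAATG and CACGTG), before the start only, were 4.5% (TGANTCA), 10.6% (GGAATG), 5.9% (TTCNNNGAA), 57.6% (GGGCGG), 33.5% (CCACCC), 8.2% (CACGTG) and 2.7% (interferon-stimulated response element). Of the other values, 29 of 663 list medians moved by more than the spread between libraries. Windows of other sizes and the shares under other settings were chosen after seeing the data. The cause of these changes was not tested. No paired analysis was possible because the labels give the fibroblast libraries numbers that no 2 groups share. Depth limits genes such as Il9, Acan and Gm14287, which had few counts in at least 1 group.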

Other observations

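The lncRNA gene Gm12840 on chromosome 4, chosen after its values were seen, had the most negative fitted log2 fold change among the genes described here. It had 202, 113 and 560 counts in Cre replicates 1, 2 and 3 and 3, 5 and 8 counts in TKO replicates 1, 2 and 3. The groups did not overlap, but the Cre libraries spanned 3.52 to 19.4 CPM, and the fold change of -5.87 ± 0.83 missed the threshold in edgeR (adjusted p = 0.0832) while DESeq2 called it (adjusted p = 5.64e-08). Leaving out Cre replicate 1, 2 or 3 brought the edgeR adjusted p to 0.0827, 0.0410 or 0.0248, and leaving out any TKO library brought it to 0.188 to 0.335.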
